A study of Homo sapiens with 7 samples.

Results

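The vitamin D receptor (VDR) was mapped around 6 genes. ASAP2, SEMA6B, LRRC25 and NRIP1 are known as vitamin D targets, and ELL and KDM6B were examined with them. A peak was counted for a gene when it overlapped the gene body or the 100 kb on either side of it in hg19, and a peak in 2 windows went to the nearer gene. This gave 59 of the 27142 peaks that the 5 lists used here held in the part of the genome they all cover, from chromosome 16 after 50293713 to chromosome 5 at 90175161. The 6 lists of the series held 89218 peaks in all. Peaks that shared at least 1 bp were merged into sites, which gave 34 of 23253 sites.

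The cells were THP-1, a monocytic leukaemia line of human origin. They were treated for 8 h with 100 nM 1,25(OH)2D3, the active hormone, called 1,25D here, or with the solvent, 0.1% ethanol (EtOH). Fragments bound by VDR were isolated by ChIPmentation, which is immunoprecipitation of crosslinked chromatin with adapters inserted by a transposase. There were 3 libraries per treatment, but the list of 1,25D replicate 2, as used here, stopped on chromosome 16 before the first of these genes, so 1,25D replicates 1 and 3 are set against EtOH replicates 1, 2 and 3. Nothing in the labels ties the replicates to separate cultures, so p-values here measure a spread that may be technical. The files hold no expression values, so neither the identity of the cells nor any effect of a site on the gene near it was measured. The authors' fold enrichment of a peak over background, from their peak caller, is called its fold. Sequencing depth is unknown.

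VDR is a nuclear receptor that binds DNA together with the retinoid X receptor, classically at a pair of hexamers repeated in the same direction with 3 bp between them. Hormone binding changes the shape of the receptor so that it exchanges corepressors for coactivators, and in monocytes it regulates genes of differentiation and innate immunity. VDR sites can lie at a promoter or far from it, within introns or between genes.

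One of the sites called in both 1,25D lists and in no EtOH list spanned a gene start, that of LRRC25. The sequence around this start is shown for that reason, as RefSeq has it in GRCh38.p14 (chromosome 19, 18397573 to 18397872, minus strand), 5′ to 3′, with the 250 bases before the start in lower case and the first 50 transcribed bases in capitals. The start of that build was not converted to hg19.
LRRC25: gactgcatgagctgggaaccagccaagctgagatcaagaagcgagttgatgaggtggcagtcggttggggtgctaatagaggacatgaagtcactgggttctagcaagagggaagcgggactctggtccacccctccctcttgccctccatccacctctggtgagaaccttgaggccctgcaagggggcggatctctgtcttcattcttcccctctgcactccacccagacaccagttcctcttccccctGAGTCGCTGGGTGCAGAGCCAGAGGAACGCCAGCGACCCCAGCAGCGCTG
The hexamer AGGTCA, its variant AGTTCA, the variant GGTTCA and the variant GGGTCA, searched on both strands, were not in this window, whereas 38.6% of the 35116 promoter windows of the same length in the table held at least 1 of them. Of the other promoter windows that the table gives for ASAP2, NRIP1, ELL and KDM6B, 1 of NRIP1 and 1 of KDM6B held GGTTCA. SEMA6B had no window there and was not searched. None of the 8 windows of the other 5 genes held a pair of these hexamers in the same direction and 3 bp apart. As only 0.07% of all windows did, this absence tells little.

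Around the 6 genes, every site called in all 3 EtOH lists was also called in both 1,25D lists, and 4 further sites were called in both 1,25D lists alone. Of the 34 sites, 9 were called in both 1,25D lists (over all sites, 6.09%). Of these 9, 4 were in no EtOH list (2.70% of all sites) and 5 were in all 3 EtOH lists (1.34% of all sites were in all 5 lists). No site of the windows was shared by the 3 EtOH lists while missing from both 1,25D lists, a pattern that 0.00860% of all sites had. That pattern was rare everywhere, at 2 sites of the covered part, against 311 sites that every list called. Its absence here is thus not shown to be particular to these genes. Sites shared by the EtOH lists but found in a single 1,25D list were not counted over the covered part. The opening count of this paragraph thus has no exact share over all sites beside it. Among the 1416 sites called in both 1,25D lists across the covered part, 44.3% were in no EtOH list and 22.0% were in all 3. The 4 of 9 in no EtOH list were thus near the share over all such sites, and the 5 of 9 in all 3 were above it. At least 1 site in both 1,25D lists lay in 5 of the 6 windows, and a site in all 5 lists lay in 4. When the covered part was cut into tiles of 250 kb, 23.5% of the 4456 tiles held a site in both 1,25D lists and 6.64% held a site in all 5. Tiles and windows are not fully alike. The windows were 206474 to 398919 bp long, lay around genes and held a site by any overlap. A tile was laid without regard to genes and held a site by its centre. ASAP2, SEMA6B, LRRC25 and NRIP1 were picked as known targets, and all 6 genes with earlier results of these data known. These counts therefore describe the genes and are not a test. Without 1,25D replicate 1, where the single list of replicate 3 decides, the counts of 9 and 4 became 20 and 14.

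**Figure D1:**
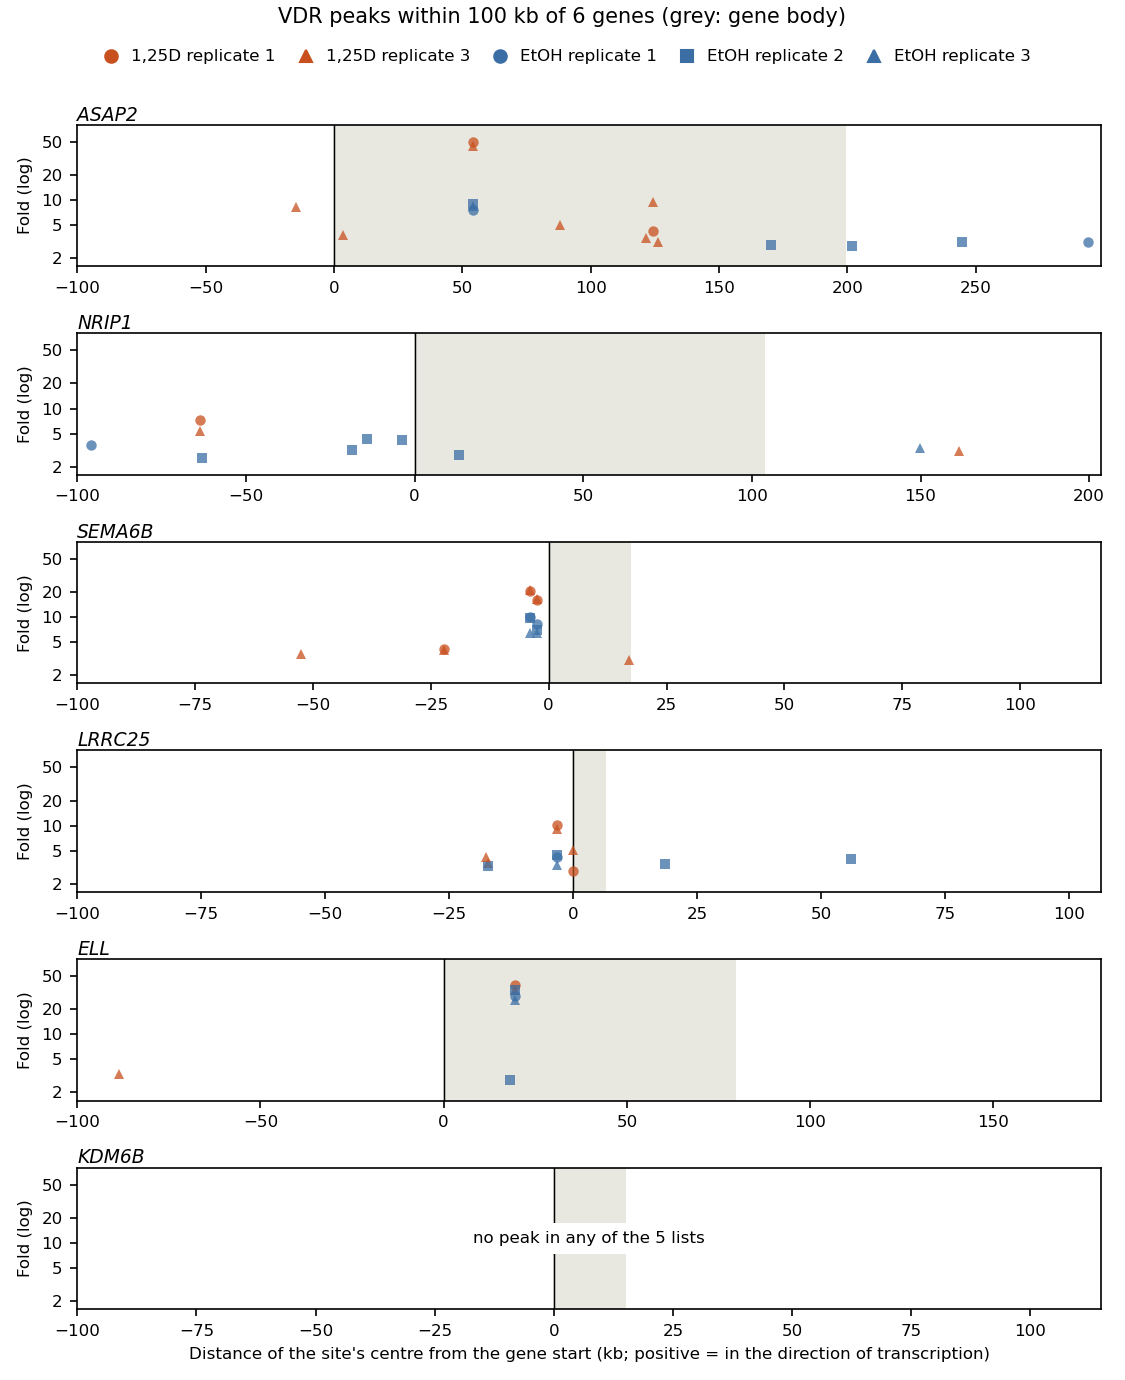
Fold of every peak within 100 kb of the 6 genes (log scale) against the distance of its site's centre from the gene start in kb, with 1 panel per gene, the gene body in grey, 1,25D lists in orange and EtOH lists in blue. SEMA6B and LRRC25 have their strongest site within 5 kb upstream of the start, ASAP2 and ELL have theirs inside the gene, NRIP1 has its only repeated 1,25D site 63.2 kb upstream, and the KDM6B panel is empty.

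ASAP2, an Arf GTPase-activating protein of membrane traffic and cell adhesion sites, had the strongest 1,25D site of the 6 genes. It lay inside the gene on chromosome 2 at 9400532 to 9401765, 53.6 kb after the start. The fold was 49.1 and 44.0 in 1,25D replicates 1 and 3, against 7.62, 8.89 and 8.44 in EtOH replicates 1, 2 and 3. Both 1,25D values were far above all 3 EtOH values, and the EtOH values lay close together. The mean was 46.6 ± 3.62 after 1,25D (SD, n = 2) and 8.31 ± 0.646 after EtOH (SD, n = 3), a ratio of 5.601. Of the 311 sites called in all 5 lists, 1 had a higher ratio of mean folds, and the median ratio was 1.61. By mean 1,25D fold it came 5th of the 1416 sites called in both 1,25D lists. The peak itself was also wider, at 1187 and 1233 bp in the 1,25D lists and 434, 653 and 715 bp in the EtOH lists. All 3 EtOH peaks lay inside the span of the 1,25D peaks.

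A second site in ASAP2 was called in both 1,25D lists and in no EtOH list, at 9470783 to 9471294, 124 kb after the start. Its fold was 4.21 in 1,25D replicate 1 and 9.55 in replicate 3, so the 2 libraries differed by more than 2-fold. The other 1,25D peaks near ASAP2 were in replicate 3 alone, which listed 7 peaks in the window where replicate 1 listed 2. The strongest of them lay 14.7 kb upstream of the start, with a fold of 8.27 and an authors' p-value of 1.36e-13 in that list. Such a difference between replicates of 1 treatment limits what presence in a single list can show. In the EtOH lists the other ASAP2 peaks were weak, with folds of 2.77 to 3.15, and each was in 1 list.

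SEMA6B, a transmembrane semaphorin that signals through plexin receptors, had a pair of sites just upstream, 1.15 kb apart. The nearer, on chromosome 19 at 4562032 to 4562428, lay 2.21 kb before the gene start, and the further, at 4563578 to 4563907, lay 3.76 kb before it. At the nearer site the fold was 16.2 and 16.6 in the 1,25D lists, against 8.33, 6.92 and 6.49 in EtOH replicates 1, 2 and 3. At the further site it was 20.4 and 21.4 in the 1,25D lists, against 10.1, 9.69 and 6.49 in EtOH replicates 1, 2 and 3. The folds of the 2 groups did not overlap at either site, and the 1,25D lists were within 1 fold unit of each other at both. Ranks within the lists did overlap at both sites, as given below. The share of all sites in all 5 lists whose folds did not overlap was not counted. A lack of overlap, here or at other genes, is thus not shown to be particular to these sites. The ratios of mean folds were 2.26 and 2.39, above the upper quartile of 2.22 over the sites in all 5 lists. At the further site the 5 starts lay within 25 bp and the 5 ends within 27 bp, with lengths of 321 and 329 bp in the 1,25D lists and 286 to 307 bp in the EtOH lists. At the nearer site the starts spread over 85 bp and the ends over 106 bp, with lengths of 391 and 392 bp in the 1,25D lists and 211 to 304 bp in the EtOH lists. Another site, 22.0 kb upstream at 4581820 to 4582237, was in both 1,25D lists with folds of 4.196 and 3.996 and in no EtOH list. No EtOH list had a peak in the SEMA6B window other than at the pair.

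LRRC25, a leucine-rich repeat membrane protein found in myeloid cells, had a similar but weaker pattern at its start. The stronger site, on chromosome 19 at 18511385 to 18511924, lay 2.96 kb upstream. Its fold was 10.1 and 9.16 in 1,25D replicates 1 and 3, against 4.19, 4.40 and 3.36 in EtOH replicates 1, 2 and 3. Both 1,25D values were well above the highest EtOH value, with a mean of 9.62 ± 0.647 (SD, n = 2) after 1,25D and 3.99 ± 0.554 (SD, n = 3) after EtOH, a ratio of 2.41. The peaks were 472 and 538 bp long in the 1,25D lists and 238 to 299 bp long in the EtOH lists.

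The site over the LRRC25 start, at 18508368 to 18508740, was called in the 1,25D lists only. The peak of replicate 1 reached from 231 bp before the start to 9 bp after it, with a fold of 2.89. That of replicate 3 reached from 313 bp before to 59 bp after, with a fold of 5.08. The nearest EtOH peaks were those of the upstream site, 2.74 to 2.93 kb away. Replicate 1 ranked the peak 4013th of its 4230 in the covered part, near the weak end of that list, and replicate 3 ranked it 967th of 4196. A site 17.04 kb upstream was in 1,25D replicate 3 and EtOH replicate 2, with folds of 3.55 and 3.28.

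NRIP1, a corepressor recruited by many nuclear receptors, had no site in all 5 lists. Its one repeated site lay 63.2 kb upstream on chromosome 21 at 16500375 to 16500941, with folds of 7.33 and 5.45 in 1,25D replicates 1 and 3. The call depends on how sites and windows are drawn: the centres of its 2 peaks were 199 bp apart, so it is no shared site when centres must lie within 150 bp, and it falls outside flanks of 50 kb. No EtOH peak overlapped it, but EtOH replicate 2 had a weak peak, with a fold of 2.57, that ended 95 bp before it. The other 2 EtOH lists had no peak within 32 kb of it. In all, 7 of the 9 NRIP1 sites were in a single EtOH list, 5 of them in EtOH replicate 2, with folds of 2.57 to 4.35. These lay on both sides of the start, and none was seen in another list.

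ELL, an elongation factor of RNA polymerase II and a fusion partner of KMT2A in acute leukaemia, carried a strong site whether or not the hormone was given. It lay inside the gene on chromosome 19 at 18612926 to 18614216, 18.7 kb after the start. The fold was 39.4 and 34.4 in 1,25D replicates 1 and 3, against 28.6, 34.5 and 25.5 in EtOH replicates 1, 2 and 3. Here the groups overlapped, since EtOH replicate 2 was slightly above 1,25D replicate 3. The mean was 36.9 ± 3.56 (SD, n = 2) after 1,25D and 29.5 ± 4.55 (SD, n = 3) after EtOH, a ratio of 1.25, just under the lower quartile of 1.26 over the sites in all 5 lists. In the covered part it had the highest fold of EtOH replicate 2, the 2nd highest of EtOH replicate 1 and the 4th highest of EtOH replicate 3. In 1,25D replicates 1 and 3 it ranked 14th and 11th. Its peak was not wider after the hormone, at 804 and 1124 bp in the 1,25D lists and 980 to 1289 bp in the EtOH lists. No other site assigned to ELL was in more than 1 list. LRRC25 and ELL are neighbours with SSBP4 and ISYNA1 between them in RefSeq. The ELL site, whose folds overlapped between treatments, thus lay in 1 stretch with the 2 LRRC25 sites called in both 1,25D lists. The folds of 1 of these did not overlap, and no EtOH list held the other. Of the remaining LRRC25 sites, 3 were in a single list, 1 in 1,25D and 2 in EtOH. Another 1 was in a list of each treatment.

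KDM6B, a demethylase that removes a repressive mark from histone H3, had no peak of any strength within 100 kb in the 5 lists as used here. The nearest peak in 1,25D replicate 3 was 100.7 kb from the gene, just outside the window, with a fold of 3.59. In the other lists the nearest was 1017 kb away in 1,25D replicate 1, and 1926, 204 and 1926 kb away in EtOH replicates 1, 2 and 3. A stretch of 250 kb with no peak in any of the 5 lists was not rare. Of the 319 tiles of that length on chromosome 17, 24.8% were empty, as were 8.35% of those in the whole covered part. How common the longer distances in single lists were was not counted. A gene with no listed peak is one where nothing passed the caller's threshold in these lists, which does not show that VDR was absent.

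**Figure D2:**
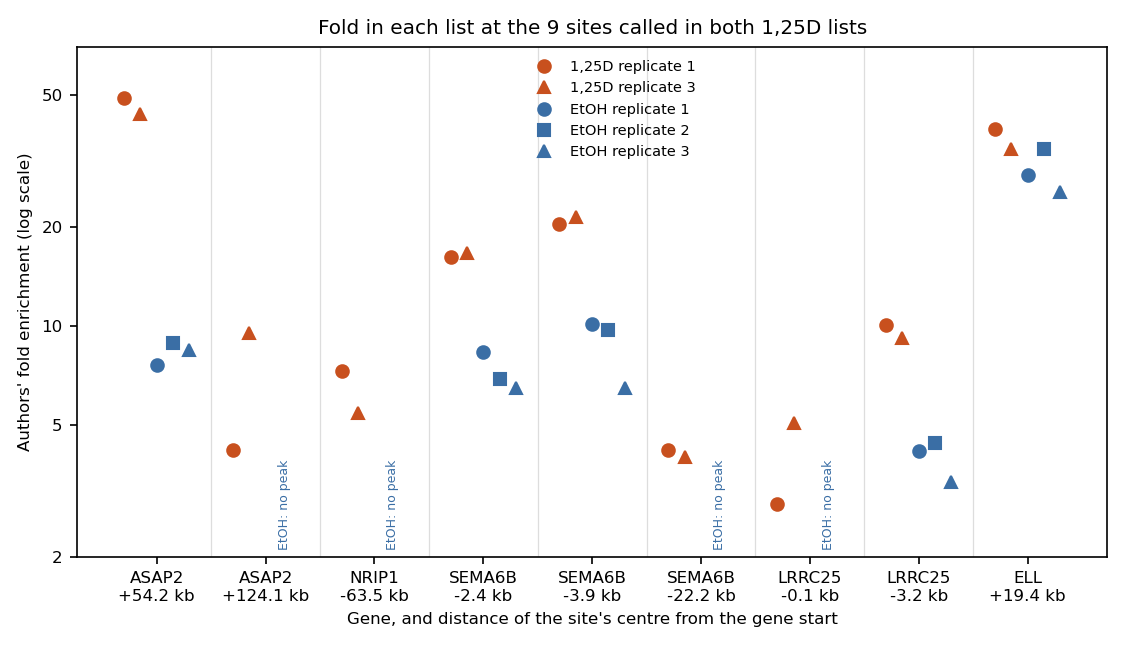
Fold in each list (log scale) at the 9 sites called in both 1,25D lists, with the gene and the distance of the site's centre from the gene start below; 1,25D lists are orange and stand left of the EtOH lists in blue. The groups are apart at the ASAP2 site at +54.2 kb, the SEMA6B pair and the LRRC25 site at -3.2 kb, they overlap at ELL, and 4 sites have no EtOH peak.

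Folds come from separately made lists, so the sites were also ranked by fold within each list over the same 311 sites that all 5 lists called. The ASAP2 site ranked 5th and 4th in 1,25D replicates 1 and 3, against 78th, 62nd and 65th in the EtOH lists. The LRRC25 upstream site ranked 130th and 171st in the 1,25D lists, against 227th, 233rd and 278.5 in the EtOH lists, where a fractional rank is a tie. At both of these sites the lower of the 1,25D ranks was still above the best EtOH rank, which was so at 22.5% of the 311 sites. The ELL site ranked 14th and 11th in the 1,25D lists, against 2nd, 1st and 4th in the EtOH lists, so its order was the opposite, which was so at 23.5% of the sites. Its fold was no lower on average, and ranks are relative to the other sites. Both SEMA6B sites had overlapping ranks: the further one ranked 37th and 44th in the 1,25D lists, against 37.5, 47th and 112th in the EtOH lists. Ranks were thus separate at 3 of the 5 sites, where 46.0% of all 311 were, and 5 sites are too few to read more from it. Without 1,25D replicate 3, when 1 library is set against 3, ranks were separate at 5 of the 5. A single 1,25D rank lies apart from the EtOH ranks more easily than 2 do. The share of all sites with separate ranks was not counted for that setting, so nothing is read from this count.

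**Figure D3:**
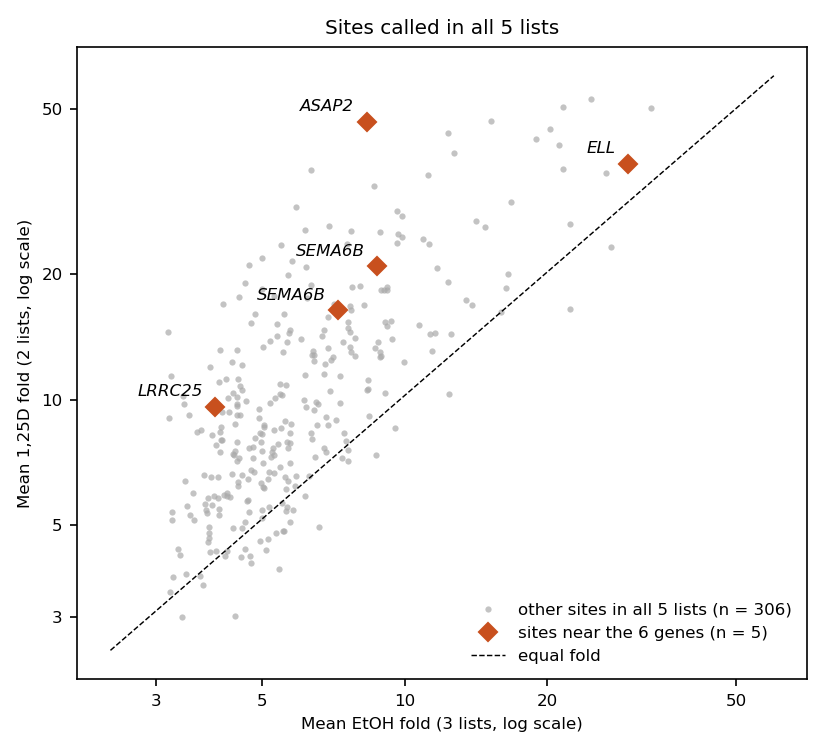
Mean fold in the 2 1,25D lists against mean fold in the 3 EtOH lists (both log scales) for the 311 sites called in all 5 lists; diamonds are the 5 sites near the 6 genes, grey points the other 306, and the dashed line marks equal folds. ASAP2 lies at the upper edge of the cloud (46.6 against 8.31) and ELL close to the line (36.9 against 29.5).

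By number, the windows held 9 and 20 peaks in 1,25D replicates 1 and 3, against 7, 17 and 6 in EtOH replicates 1, 2 and 3. The groups overlapped, with a ratio of geometric means of 1.501 and a two-sided exact permutation p of 0.5 over 10 assignments of the labels. Counting strong peaks, those whose fold reached 5, the 1,25D lists had 6 and 10 and each EtOH list had 4. This ratio was 1.94. When the fold had to reach 10 it was 3.55. Each gave an exact permutation p of 0.1, below which 2 libraries against 3 cannot go. Over the whole covered part the corresponding ratios were 0.736 with every peak counted, 3.59 where the fold reached 5 and 5.86 where it reached 10. The 4 strong EtOH peaks were the same in each list: ASAP2, the SEMA6B pair and ELL. The windows thus held 0.877% of the strong 1,25D peaks in the covered part and 1.57% of the strong EtOH peaks, so relative to its list the count of strong peaks was lower in the 1,25D lists, with a ratio of 0.539 and an exact permutation p of 0.1. For all peaks the order was the opposite: the windows held 0.344% of the 1,25D peaks and 0.160% of the EtOH peaks, a ratio of 2.04 relative to the list, also with an exact permutation p of 0.1. Both ratios relative to the list were chosen after seeing the data, so their p-values are descriptive.

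**Figure D4:**
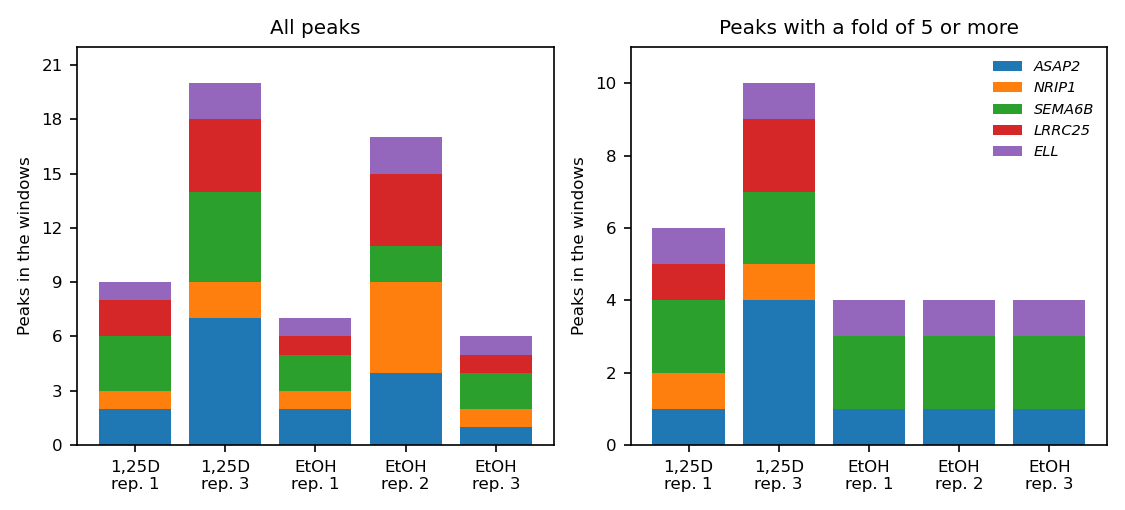
Number of peaks in the windows of each gene (stacked colours) in each list, for every peak (left) and for peaks whose fold reached 5 (right); KDM6B has none. The all-peak bars of the groups overlap (9 and 20 in 1,25D, 7, 17 and 6 in EtOH), whereas the strong-peak bars do not (6 and 10 in 1,25D, 4 in each EtOH list). Strong peaks were also apart over the whole covered part, with 844 and 980 in 1,25D against 238, 304 and 224 in EtOH.

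Most of the other sites were weak and unrepeated. Of the 34 sites, 24 were in 1 list (91.9% of all sites in the covered part were), 10 of them in 1,25D and 14 in EtOH. All 10 from 1,25D were in replicate 3 and none in replicate 1, and 11 of the 14 from EtOH were in replicate 2. EtOH replicate 2 listed 10052 peaks in the covered part, against 3997 and 4667 in EtOH replicates 1 and 3 and 4230 and 4196 in 1,25D replicates 1 and 3. Of its 11 single-list sites, 8 were exactly 148 bp long, which was the shortest length in that list and that of 63.0% of its peaks in the covered part. The single-list EtOH folds were 2.57 to 4.35, and the single-list 1,25D folds were 3.09 to 8.27.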

How the data were processed

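VDR ChIPmentation peak lists of 5 libraries were used (1,25D replicates 1 and 3, EtOH replicates 1 to 3); the list of 1,25D replicate 2 ended before these genes, and the input was not analysed here. Reads were aligned to hg19 with Bowtie 1.1 and peaks called with MACS2, 1 list per library, per the submitters' processing notes; their settings, the control and any removal of duplicates were not given in those notes. Each peak carries a fold enrichment, which is a ratio over background from the authors' peak caller. It also carries that caller's p-value, as deposited by the authors. The largest p-values were 0.00433 (1,25D replicate 1), 0.00431 (EtOH replicate 1) and 0.00990 to 0.00997 (the other lists). An incomplete last line, found in 3 of the 6 lists of the series, was left out. Whether starts are counted from 0 is not stated, so a start may be off by 1 bp.

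Peaks sharing at least 1 bp over the 5 lists were merged, and a list's highest fold at a site was its fold there. Numbers per library were compared as log2 values by an exact permutation test; folds were described and ranked, not tested. Every site called in both 1,25D lists, or in all 3 EtOH lists, is described, and the others by counts and ranges. The members, lists and comparisons were chosen with earlier results of these data known. Strands come from the RefSeq promoter table, which matched 5 genes, and for SEMA6B from general knowledge of the gene. No genome or annotation of hg19 was used here, so exons and introns are not told apart and no peak sequence is shown. The merging step was tested on simulated lists. Columns of other samples numbered 0. Python 3.11.15, pandas 2.3.3, numpy 2.4.6 and matplotlib 3.10.9 were used.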

Additional observations from a re-analysis of the deposited data

How the results depend on the processing

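The ratios of peak number kept their direction in every alternative tried except the count per 1000 peaks, lying between 1.01 and 2.24 for all peaks and 1.5 and 2.5 at a fold of 5 or more without each library in turn. The lowest value for all peaks, 1.01, was the one without 1,25D replicate 3. With the replicate block over numbers 1 and 3 the ratios were 2.07 and 1.94; the labels give these libraries only a shared number. Within the replicates 1, whose lists ended at a lower p, they were 1.29 and 1.5, and within the other lists 1.98 and 2.5. Per 1000 peaks of the list, an alternative chosen after seeing the data, the ratio was 2.04 for all peaks and was reversed to 0.539 at a fold of 5 or more, where the ratio of numbers was 1.94 in the windows and 3.59 over the whole covered part.

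The count of 4 sites called in 1,25D only was 2 with peaks of fold 5 or more, and 2 at fold 10 or more. At fold 5 or more these were the NRIP1 site and the LRRC25 upstream site, the latter because its EtOH peaks fell below that fold. At fold 10 or more none of the 4 was left. The 2 were then the strongest ASAP2 site and the nearer SEMA6B site, for the same reason. The count was 7 with 200 kb flanks, and 3 with 50 kb flanks or centres within 150 bp, both of which drop the NRIP1 site. It was 4 to 14 without each library in turn, with 14 without 1,25D replicate 1, where a single 1,25D list decides. The 9 sites in both 1,25D lists became 4 at fold 10 or more, 15 with 200 kb flanks, 8 with 50 kb flanks or centres within 150 bp and 9 to 20 without each library, with 20 again without 1,25D replicate 1. The 5 sites in all lists became 1 at fold 10 or more and 3 without SEMA6B, and stayed at 5 without each library. The 3 sites with separate ranks became 1 at fold 10 or more, 5 with 200 kb flanks and 3 to 5 without each library, with 5 without 1,25D replicate 3. The share of all sites with separate ranks was not counted at fold 10 or more or without a library. The EtOH-only count was 0 throughout. Without each library in turn, the ratio of mean folds was 5.29 to 5.91 at the ASAP2 site, 2.15 to 2.45 and 2.11 to 2.59 at the SEMA6B pair, 2.24 to 2.55 at LRRC25 and 1.16 to 1.36 at ELL.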

Other observations

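The 100 kb window left out VDR sites on the upstream side of NRIP1 that were stronger than any inside it. On chromosome 21 at 16594049 to 16595281, 156.9 kb before the start, the fold was 42.1 and 42.6 in 1,25D replicates 1 and 3, against 17.3, 19.4 and 20.05 in EtOH replicates 1, 2 and 3. At 16578544 to 16579367, 141.4 kb before the start, it was 16.2 and 19.2 in the 1,25D lists, against 5.95, 4.84 and 5.10 in the EtOH lists. Between them, at 16582548 to 16582817, both 1,25D lists had a peak, with folds of 3.97 and 4.25, and no EtOH list did. The groups did not overlap at either of the sites in all 5 lists, a trait whose share over all such sites was not counted. With 100 kb NRIP1 thus had 1 modest site called in both 1,25D lists, and with 200 kb it had a group of 3 more, of which 1 was nearly as strong in the 1,25D lists as the ASAP2 site. These sites were picked after their values were seen, and USP25 is the next protein-coding gene on that side in RefSeq. Whether any of them acts on NRIP1 was not measured.

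Of the sites called in both 1,25D lists or in all 3 EtOH lists, the same outer flanks held 1 more each for the following genes. Upstream of ELL, at 18788814 to 18789342 on chromosome 19, the fold was 6.90 and 11.0 in the 1,25D lists, against 2.75 in EtOH replicate 2 and no peak in the other EtOH lists. Upstream of SEMA6B, at 4715755 to 4716103, it was 3.89 and 4.93 in the 1,25D lists, and downstream of LRRC25, at 18385652 to 18385883, it was 2.65 and 2.98, with no EtOH peak at either. Neither ASAP2 nor KDM6B had a further site called in both 1,25D lists there.

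For each gene's leading site, the site elsewhere in the covered part that the same lists called and whose log2 folds differed least on average was looked up. For ASAP2 it was on chromosome 19 at 7272768 to 7273399 (mean absolute log2 difference 0.31, mean folds 32.7 in 1,25D and 8.62 in EtOH, 306 candidates over 5 lists). The matches of the other genes were closer. That of ELL, on chromosome 3 at 48263681 to 48264957, had mean folds of 34.9 and 26.5 (difference 0.14). That of the further SEMA6B site, on chromosome 4 at 102267298 to 102268021, had 18.6 and 9.18 (0.18), and that of the LRRC25 upstream site, on chromosome 3 at 135340407 to 135341032, had 8.34 and 4.08 (0.10). For the NRIP1 site, over the 2 1,25D lists, it was chromosome 3 at 185017737 to 185018030, with a mean 1,25D fold of 6.33 (0.01).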
